A study of Mus musculus with 10 samples.

Results

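Cholesterol synthesis and handling was examined in the whole brains of *Arid1b* mutant pups through 29 genes. The genes were chosen by their place in the pathway, and the rule used no measured value. Earlier results of these data were, however, known when they were chosen. The table of normalised read counts holds 18444 genes. All 29 members were found in it, and all 29 passed the filter that left 17020 genes for testing. By role, 7 encode mevalonate steps, 11 encode squalene and sterol steps, 5 encode the control of the pathway by SREBP, and 6 encode sterol transport, storage and turnover.

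The samples were 10 whole brains from male C57BL/6N mice at postnatal day 3 (P3), 5 heterozygous for *Arid1b* (HT) and 5 wild type (WT), with 1 poly-A mRNA library per mouse. *Arid1b* encodes a subunit of the BAF chromatin-remodelling complex. The line is C57BL/6N-Arid1b em1Tcp, in which Cas9 nickase and paired guides removed exon 5 of the gene in the germline, and per the methods the pups came from HT males and WT females. It is a single edited line, and the labels name no treatment. Whole-brain RNA mixes all cell types, so that fewer cells of a type and less RNA per cell cannot be told apart.

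The brain makes its own cholesterol because lipoproteins of the blood do not cross the blood-brain barrier. Acetyl-CoA is turned into mevalonate and isoprenoids, farnesyl units are joined in pairs to squalene, and squalene is closed to lanosterol and trimmed to cholesterol. When sterol in the endoplasmic reticulum is low, SCAP carries the SREBP precursors to the Golgi for cleavage, and the freed SREBP2 switches on most enzymes of the pathway, while INSIG proteins hold the complex back. Neurons and glia of the newborn brain use cholesterol for membranes and growing processes, and demand climbs when myelin is laid down after the first postnatal week.

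SREBP works at promoters together with NF-Y, which binds the letters CCAAT. To show what these enzyme genes share in sequence, which the choice of members did not use, RefSeq promoter windows on GRCm38.p6 (250 bases before to 50 after a transcription start) were read for the 24 members that have one. The 4 stretches below lie upstream of the start and overlap no exon in GENCODE M21. They are *Hmgcs1* (chr13:119690171-119690350, plus strand), *Mvk* (chr5:114444089-114444268, plus strand), *Mvd* (chr8:122443423-122443602, minus strand) and *Nsdhl* (chrX:72918412-72918520, plus strand), each written 5′ to 3′ on the strand of the gene and ending 1 base before the start. Capitals mark CCAAT or its reverse complement ATTGG and, in *Hmgcs1*, the sterol regulatory element letters TCACNCCAC.
Hmgcs1: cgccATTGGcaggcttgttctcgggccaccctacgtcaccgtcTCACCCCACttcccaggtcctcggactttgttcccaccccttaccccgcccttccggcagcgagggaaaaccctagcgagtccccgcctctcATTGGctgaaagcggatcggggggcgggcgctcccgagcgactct
Mvk: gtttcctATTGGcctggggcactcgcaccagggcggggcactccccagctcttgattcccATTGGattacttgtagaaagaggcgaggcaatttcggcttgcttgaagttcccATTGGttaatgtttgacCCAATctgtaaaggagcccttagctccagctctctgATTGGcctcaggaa
Mvd: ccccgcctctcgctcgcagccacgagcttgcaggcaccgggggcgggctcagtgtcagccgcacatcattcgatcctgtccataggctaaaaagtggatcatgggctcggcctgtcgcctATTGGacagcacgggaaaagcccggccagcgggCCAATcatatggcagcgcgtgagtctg
Nsdhl: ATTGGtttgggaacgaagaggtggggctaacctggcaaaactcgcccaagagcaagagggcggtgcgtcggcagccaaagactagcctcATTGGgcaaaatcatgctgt

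The *Hmgcs1* stretch is shown because it held the only match to TCACNCCAC among the 24 members, *Mvk* because it had the most matches to CCAAT, 5, and *Nsdhl* because it was the enzyme gene with the smallest limma p. *Mvd*, with 2 matches, is a further enzyme gene whose stretch meets no annotated exon. Searched on both strands over the full windows, CCAAT was present in 14 of the 15 enzyme genes with a window (93.3%), *Acat2* being the exception, against 41.1% of all 27025 genes in the promoter table. For SREBP control the count was 4 of 5, and for sterol transport, storage and turnover 3 of 4. TCACNCCAC was present in 1 of 24 members, against 1.44% of all genes. The marked letters of the 2 motifs did not overlap in the stretches shown. A match describes the letters of the window and is not evidence of binding.

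Before the pathway, the edited gene was read in every library, as a value for the whole gene and not for exon 5. *Arid1b* (chr17:4994332-5347656) had 2372, 2230.2, 2253, 1505 and 2142 normalised counts in HT 1 to HT 5, and 3386, 3155, 3597, 3429 and 3108 in WT 1 to WT 5. Every HT library lay below every WT library, and the mean in HT came to 63% of that in WT (2101 ± 343 in HT and 3335 ± 203 in WT, SD, n = 5 per group). The log2 difference was -0.68 (SE 0.11) with an exact two-sided permutation p = 0.00794, the smallest that 5 against 5 libraries can give, while the limma p adjusted over all genes was 0.39. HT 4 was far below the other HT libraries, and without it the limma adjusted p was 0.000252.

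HT 4 also stood apart across the transcriptome. Its score on the first principal component was 53.9 against -23.4 to 9.81 in the others, and its deviations from the gene means correlated with transcript length (Spearman rho = -0.496 across genes, against -0.176 to 0.337 in the others). It was the lowest HT library for *Lss*, *Hsd17b7*, *Sc5d*, *Hmgcs1*, *Srebf2*, *Scap*, *Abca1* and *Soat1*. It was the highest HT library for *Mvk*, *Pmvk*, *Mvd*, *Fdps*, *Fdft1*, *Cyp51*, *Tm7sf2*, *Msmo1*, *Srebf1* and *Npc2*. For the counts of calls and the medians of each role, and for the genes it moved most, values without HT 4 are given as well. Among the members not described that way below, the log2 difference without HT 4 was 0.031 for *Fdps* (from 0.083), -0.092 for *Npc2* (from -0.026), 0.073 for *Sc5d* (from 0.020) and 0.061 for *Srebf2* (from 0.010), and *Mvk* and *Msmo1* changed sign to -0.022 and -0.046. *Pmvk* fell from 0.077 to 0.0079 and *Mvd* from 0.072 to 0.023. None of these had an unadjusted p under 0.05. The labelled tissue was checked against 10 neuronal, 10 astrocyte and radial glia and 10 oligodendrocyte lineage markers, all above 0 in every library, with sums of 200410 to 235692, 45680.4 to 57038 and 13545 to 19648 normalised counts. Summed choroid plexus markers (5 of 5 measured, none at 0 in any library) ranged from 6527 to 9378 normalised counts in HT and from 9912 to 13579 in WT, with no overlap between the groups. Nearly all of the sum was *Ttr*, the other 4 markers each overlapped between the groups, and so did the mean deviation of the 5 markers (HT up to -0.13, WT down to -0.17 log2 units). Their part in the differences below was not tested.

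The cholesterol genes were first compared by level within the WT brain, as normalised counts per kilobase of the longest coding transcript. *Hmgcs1*, which makes HMG-CoA for the mevalonate pathway, was by far the highest at 7457 ± 436 (SD, n = 5), above 99.2% of all tested genes. *Fdps*, the farnesyl diphosphate synthase, followed at 2921 ± 256, then *Sqle*, the squalene epoxidase, at 2018 ± 132 and *Acat2*, the cytosolic thiolase at the head of the pathway, at 1766 ± 111. The WT libraries of *Hmgcs1* did not overlap those of *Fdps*, nor did those of *Fdps* overlap those of *Sqle*, whereas *Sqle* and *Acat2* overlapped.

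Among the genes of SREBP control, *Srebf2* was the highest per kilobase (1397 ± 24.8) and *Srebf1* the lowest (256 ± 22.7). Of the handling genes, *Cyp46a1*, the neuronal enzyme that hydroxylates cholesterol for export, was the highest (598 ± 24.4), and *Soat1*, which esterifies cholesterol for storage, was the lowest of all 29 on this length (92.1 ± 23.4). The lower part of the order was mostly unresolved, because from *Npc1* down to *Ebp* each gene overlapped the next. The order also depends on the length used. With the median transcript length *Hmgcs1* stayed at rank 1, but *Scap* moved from rank 14 to 2, *Cyp51* from 8 to 3, *Sqle* from 3 to 10, *Srebf1* from 24 to 12 and *Soat1* from 29 to 22, with *Ebp* last. *Scap* was then the highest gene of SREBP control, and *Srebf1* was no longer its lowest.

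**Figure D1:**
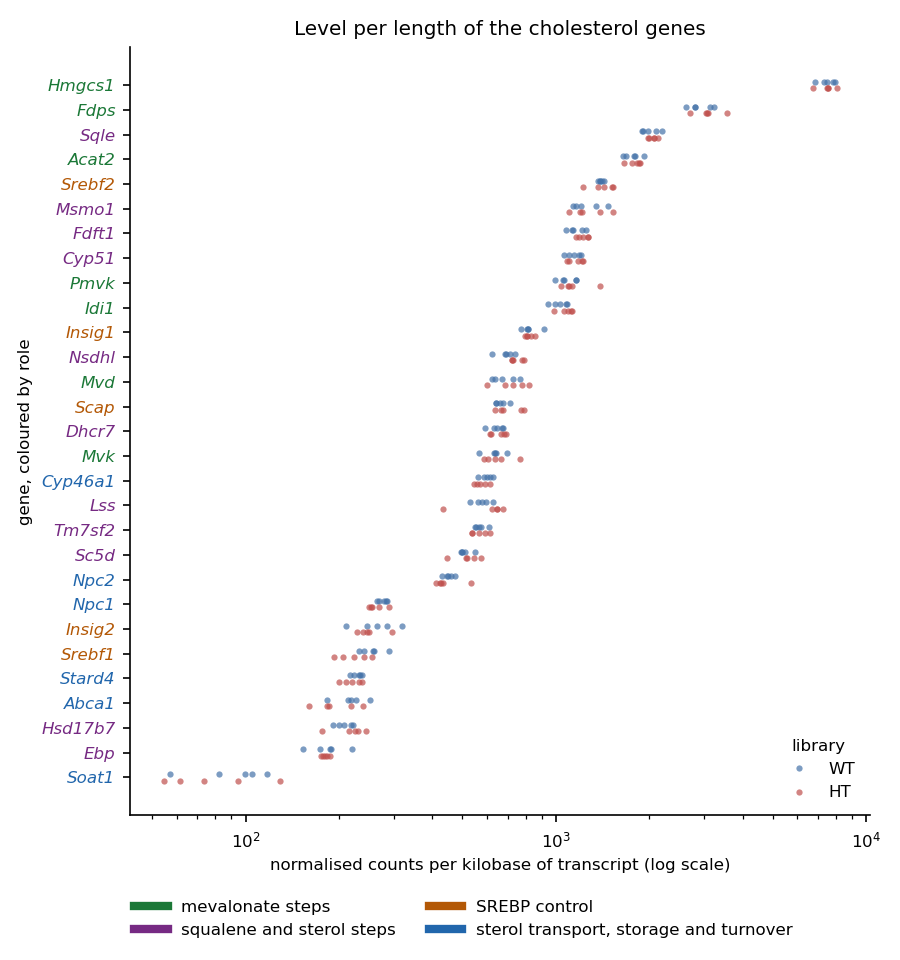
Level of the 29 cholesterol genes in every library, as normalised counts per kilobase of the longest coding transcript on a log axis, ordered by the WT mean (5 WT and 5 HT libraries, 1 point each) with gene names coloured by role. On this length *Hmgcs1* lies above all other members, *Soat1* lies lowest, and HT and WT points overlap for every gene.

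HT was then compared with WT to ask whether loss of 1 *Arid1b* allele altered the pathway at P3. No member passed an adjusted p of 0.05 in limma, where 0% of the 17020 tested genes did. At an unadjusted p under 0.05 the count was 1 of 29 members (*Srebf1*), against 3.41% of all tested genes (580 genes). With quantile normalisation and without WT 2 the count was also 1, against 575 and 512 of all tested genes, but the member was *Nsdhl*. In 0 of 29 members did the HT and WT libraries lie apart without overlap, against 0.629% of all tested genes. The share among the members was thus close to the background in each count.

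The estimates were small and their intervals narrow. The log2 differences (HT minus WT) ran from -0.20 to 0.12, and 20 of 29 were smaller than their own SE. In 23 of 29 members the whole 95% interval lay within 0.25 log2 units of 0, and in 28 of 29 within 0.5. The pooled SD between mice had a median of 0.10 on the log2 scale over the members, against 0.13 over the 12826 genes with a mean of at least 100. *Soat1* was the exception, with an interval from -0.72 to 0.35.

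**Figure D2:**
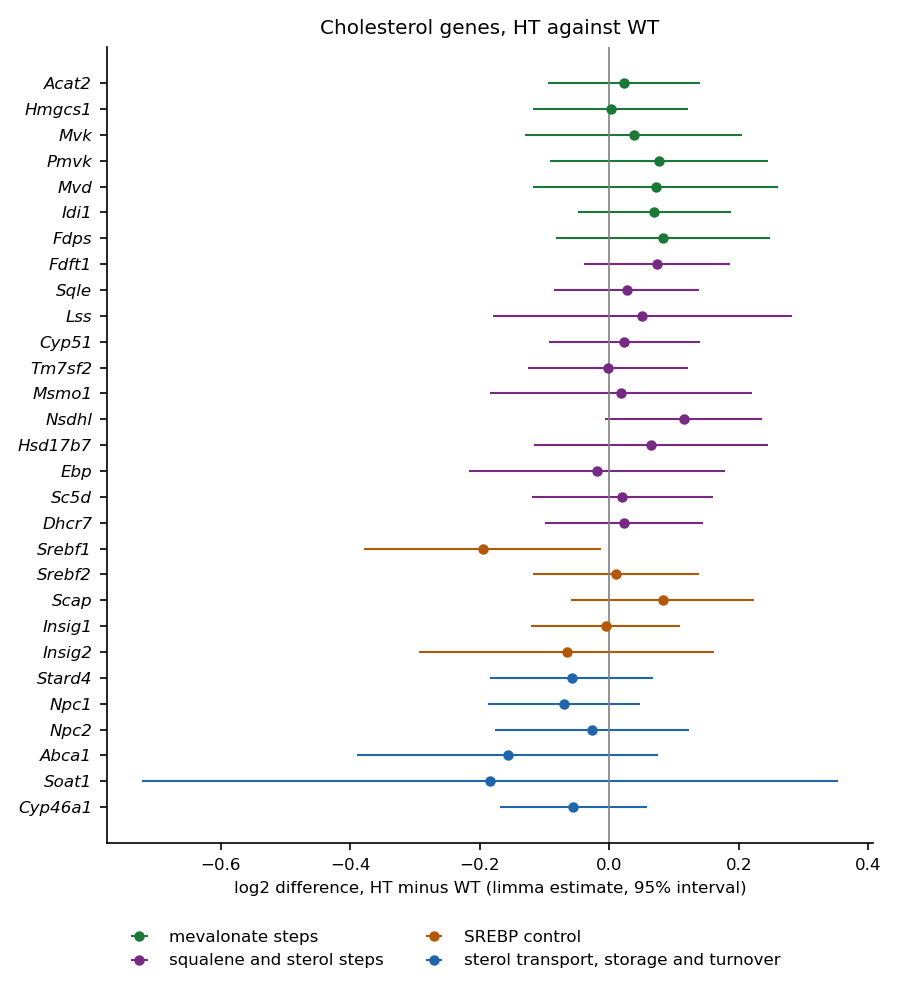
Log2 difference between HT and WT for each of the 29 genes, grouped and coloured by role, with the limma estimate as a point and its 95% interval as a line (n = 5 per group). All intervals but that of *Srebf1* include 0, and *Soat1* has the widest.

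In the mevalonate steps all 7 estimates were above 0 with a median of 0.070, against -0.0074 over all tested genes, of which 46.4% were above 0. None of the 7 passed either threshold. Without HT 4 the median was 0.023, and 6 of 7 were above 0. Without WT 1 it was 0.040 with 5 of 7, and 6 of 7 were above 0 without HT 1, HT 2, HT 5, WT 3 or WT 4 and with quantile normalisation. The median was 0.043 without HT 5, 0.045 without WT 3 and 0.038 without WT 4. The largest estimate was that of *Fdps* (chr3:89093588-89101959), which had 3742, 4268, 4254, 4936 and 4201 normalised counts in HT 1 to HT 5, and 3624, 4329, 3882, 3872 and 4477 in WT 1 to WT 5. HT 4 was its highest library and HT 1 lay near the lowest WT libraries, so that the groups overlapped widely (log2 difference 0.083, SE 0.076, limma adjusted p = 1.00, exact permutation p = 0.357).

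*Idi1*, which isomerises isopentenyl diphosphate (chr13:8885501-8892451), had 3216, 3304, 2989, 3385 and 3404 normalised counts in HT 1 to HT 5, and 2857, 3260.2, 3002, 3133 and 3279 in WT 1 to WT 5. HT 3 lay below WT 2, WT 3, WT 4 and WT 5, and the log2 difference was 0.070 (SE 0.055, limma adjusted p = 1.00, exact permutation p = 0.214).

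*Hmgcs1* (chr13:119690379-119708260), the gene with the sterol regulatory element letters above, had 26112, 27839, 25956, 23359 and 26118 normalised counts in HT 1 to HT 5, and 23619, 27396, 25279, 25819.5 and 27044 in WT 1 to WT 5. Its group means were nearly equal (25877 ± 1606 in HT and 25832 ± 1510.0 in WT), with a log2 difference of 0.0023 and a 95% interval from -0.12 to 0.12. The sign of this estimate turned under 6 of 20 alternative settings.

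Of the remaining mevalonate genes, *Acat2* had a mean of 4033 ± 183 in HT and 3973 ± 250.1 in WT. Mevalonate kinase, *Mvk*, stood at 1083 ± 116 in HT and 1053 ± 76 in WT. The next kinase, *Pmvk*, had 1373 ± 163 in HT and 1297 ± 87.1 in WT, and the decarboxylase *Mvd* had 1268 ± 152 in HT and 1203 ± 107 in WT. For *Mvk*, *Pmvk* and *Mvd* the highest of all 10 libraries was HT 4 (at 1273, 1655 and 1443).

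In the squalene and sterol steps 9 of 11 estimates were above 0, with a median of 0.023, and none passed either threshold. Leaving out 1 library gave medians from 0.0070 (without WT 1, 7 of 11 above 0) to 0.059 (without WT 2, 10 of 11 above 0). Without HT 4 the median was 0.024, and 8 of 11 were above 0. *Nsdhl*, an X-linked dehydrogenase that helps strip methyl groups from the sterol ring (chrX:72918557-72958514), came closest. It had 1567, 1561, 1683, 1580.5 and 1707 normalised counts in HT 1 to HT 5, and 1352, 1606, 1499, 1485 and 1539.9 in WT 1 to WT 5. All HT libraries exceeded WT 1, WT 3, WT 4 and WT 5, and WT 2 fell among them. The log2 difference was 0.12 (SE 0.056), with an unadjusted limma p = 0.0603, an adjusted p of 1.00 and an exact permutation p = 0.0476.

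*Fdft1*, the squalene synthase that commits farnesyl groups to sterols (chr14:63145150-63179578), had 4283, 4511, 4405, 4711 and 4706 normalised counts in HT 1 to HT 5, and 4179, 4637, 3999.8, 4199.6 and 4482 in WT 1 to WT 5. HT 4 and HT 5 were above all WT libraries, while WT 2 was above HT 1, HT 2 and HT 3 (log2 difference 0.074, SE 0.052, limma adjusted p = 1.00, exact permutation p = 0.151). *Sqle* (chr15:59315077-59331192), the highest of these steps per kilobase, had 5492, 5899, 5479, 5708 and 5735 normalised counts in HT 1 to HT 5, and 5257, 6068, 5235, 5455 and 5810.3 in WT 1 to WT 5. All HT values of *Sqle* lay within the WT range (log2 difference 0.027, 95% interval -0.084 to 0.14).

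*Lss*, the lanosterol synthase that closes the sterol ring (chr10:76531588-76557138), and *Hsd17b7*, a sterol ketoreductase, were picked out after their values were seen, because HT 4 lay apart in them. *Lss* had 3143, 3023, 2913, 2014 and 3018 normalised counts in HT 1 to HT 5, and 2612, 2929.6, 2694, 2779 and 2463 in WT 1 to WT 5. All HT libraries but HT 4 were close to or above the highest WT value, and HT 4 was below every WT value. The log2 difference over all 10 libraries was 0.051. Leaving out HT 4 gave 0.17, with a limma p of 0.00423 unadjusted and 0.446 adjusted. *Hsd17b7* had 1062, 1042, 991, 812 and 1128 normalised counts in HT 1 to HT 5, and 882, 1007, 1027, 919.5 and 955 in WT 1 to WT 5. HT 4 was again the lowest library, and the log2 difference went from 0.065 to 0.14 without it, with a limma adjusted p = 0.562.

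Without HT 4, 4 of 29 members had an unadjusted p under 0.05 (*Lss*, *Nsdhl*, *Hsd17b7* and *Srebf1*), against 8.4% of all tested genes, and none passed the adjusted threshold. *Lss* and *Hsd17b7* have long transcripts of 4.67 and 4.61 kilobases, and the values of HT 4 moved with transcript length, but the part of length in these differences was not tested. With the length trend removed and HT 4 kept, the log2 difference of *Lss* was 0.067, and with both steps it was 0.16.

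The remaining sterol enzymes differed little. The demethylase *Cyp51* had 4555 ± 254 in HT and 4482 ± 241 in WT. The oxidase *Msmo1* had 2626 ± 345 in HT and 2586 ± 284 in WT, and the desaturase *Sc5d* had 2485 ± 224 in HT and 2443 ± 106 in WT. *Dhcr7*, which makes cholesterol in the closing reduction, had 1841 ± 101.3 in HT and 1812 ± 100.3 in WT. The reductase *Tm7sf2* stood at 853 ± 49.6 in HT and 854 ± 34.5 in WT, and the isomerase *Ebp* stood at 315 ± 7.48 in HT and 322 ± 42.6 in WT. *Tm7sf2* and *Ebp* had the 2 estimates below 0 (-0.0018 and -0.019).

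**Figure D3:**
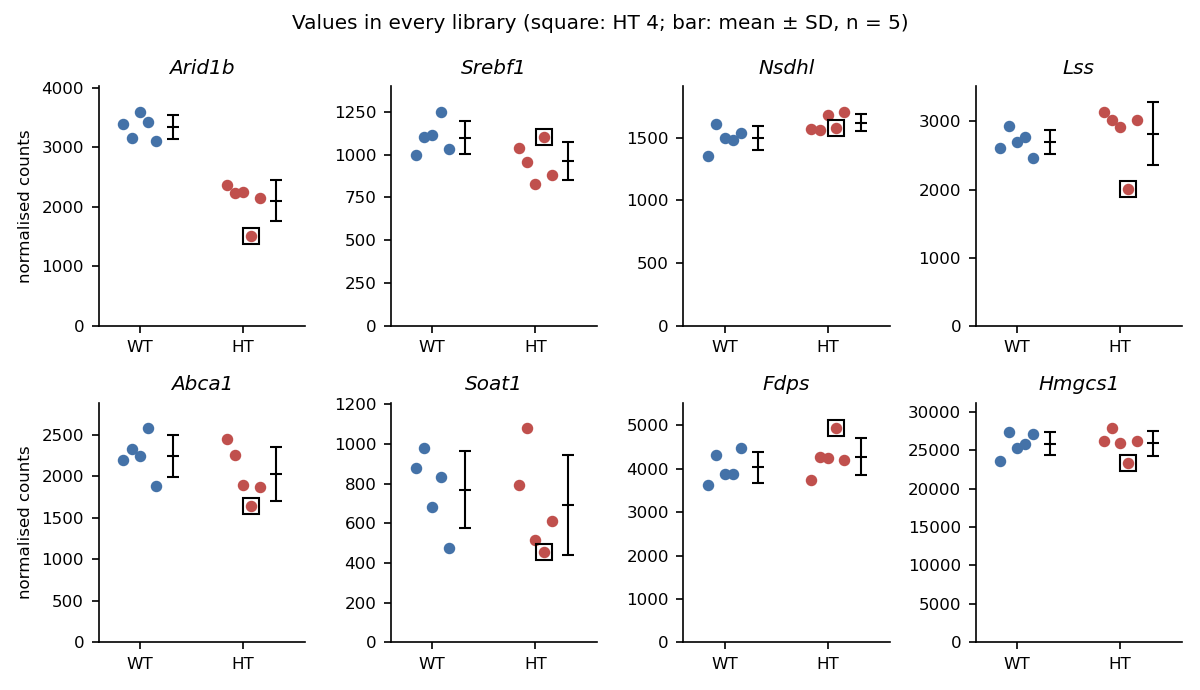
Normalised counts in every library for *Arid1b* and 7 cholesterol genes, with WT in blue, HT in red, a square around HT 4, and bars for the mean ± SD (n = 5). Only *Arid1b* separates the groups, and HT 4 is the lowest library for *Arid1b*, *Lss*, *Abca1*, *Soat1* and *Hmgcs1* and the highest for *Fdps*.

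In SREBP control the estimates went both ways, 2 of 5 above 0 with a median of -0.0051, which lay between -0.022 and 0.0084 when 1 library was left out. Without HT 4 the median was -0.00021, and 2 of 5 were above 0. *Srebf1*, which encodes the SREBP1 proteins that mainly serve fatty acid synthesis (chr11:60199089-60222581), had the smallest limma p of all members, while *Nsdhl* had the smallest exact permutation p. It had 1036, 959, 831, 1101 and 884 normalised counts in HT 1 to HT 5, and 996, 1105, 1112, 1250.4 and 1032 in WT 1 to WT 5. HT 3 and HT 5 were the lowest of the 10 libraries and WT 4 was the highest, while HT 1 and HT 4 lay among the WT values. The mean in HT came to 87.5% of that in WT, and the log2 difference was -0.20 (SE 0.085). The limma p was 0.0385 unadjusted and 1.00 adjusted, and the exact permutation p was 0.0794. Without HT 4 the difference was -0.25, with a limma adjusted p = 0.446.

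*Srebf2* (chr15:82147181-82205379), which encodes the main activator of the cholesterol enzymes, had 6931, 7277, 7688, 6200.2 and 7732 normalised counts in HT 1 to HT 5, and 6947, 7050.2, 7267, 7168 and 7027 in WT 1 to WT 5. The WT values fell inside the wider HT range, which ran from HT 4 to HT 5, and the log2 difference was 0.010 with a 95% interval from -0.12 to 0.14. *Scap*, the escort of SREBP to the Golgi (chr9:110333288-110384950), had 2805, 3253, 3330.2, 2692 and 2846 normalised counts in HT 1 to HT 5, and 2791, 2999, 2702, 2849.7 and 2715 in WT 1 to WT 5. HT 2 and HT 3 were above all WT libraries, and HT 4 was below all of them (log2 difference 0.082, SE 0.065, limma adjusted p = 1.00, exact permutation p = 0.294). The retention proteins differed less than their spread, with *Insig1* at 2213 ± 68.5 in HT and 2224 ± 149 in WT and *Insig2* at 679.7 ± 70.2 in HT and 715 ± 110.2 in WT.

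In sterol transport, storage and turnover all 6 estimates were below 0, with a median of -0.064, or -0.054 without HT 4, and none passed either threshold. Without HT 3 the estimate of *Npc2* was above 0. *Abca1*, which exports cholesterol to lipoproteins (chr4:53030787-53159895), had 2456, 2253, 1901, 1643 and 1874 normalised counts in HT 1 to HT 5, and 2195, 2326, 2247, 2580.4 and 1883 in WT 1 to WT 5. HT 3, HT 4, HT 5 and WT 5 were low and the other libraries were above 2195 or equal to it. The log2 difference was -0.16 (SE 0.11, limma adjusted p = 1.00, exact permutation p = 0.246), and -0.085 without HT 4.

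*Npc1*, which moves cholesterol out of lysosomes, had 1409, 1339, 1304, 1323 and 1516 normalised counts in HT 1 to HT 5, and 1460.3, 1495, 1387, 1482 and 1402 in WT 1 to WT 5. HT 5 was the highest library, and HT 2, HT 3 and HT 4 were the lowest (log2 difference -0.070, SE 0.054, limma adjusted p = 1.00, exact permutation p = 0.159). *Cyp46a1* (chr12:108334381-108362234) had 1149.9, 1257, 1183, 1206 and 1295 normalised counts in HT 1 to HT 5, and 1325, 1297, 1273, 1192 and 1241 in WT 1 to WT 5. HT 1 and HT 3 were the lowest libraries and WT 1 was the highest (log2 difference -0.056, 95% interval -0.17 to 0.058). The lysosomal partner *Npc2* had 1468 ± 163 in HT and 1489 ± 54.2 in WT, and the cytosolic sterol carrier *Stard4* had 1121 ± 78.9 in HT and 1166 ± 41 in WT.

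*Soat1* (chr1:156424525-156474331) varied more between mice than any other member, and its values are given because of that spread. It had 794, 1080.3, 516, 457 and 613 normalised counts in HT 1 to HT 5, and 879, 979, 685, 835 and 477 in WT 1 to WT 5. Its pooled SD was 0.46 on the log2 scale, a value exceeded by 10.9% of all tested genes, and the log2 difference was -0.18 (exact permutation p = 0.524). With 1 library left out the difference ran from -0.36 (without HT 2) to -0.052 (without HT 4).

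The lowest 4 libraries for *Soat1* were HT 3, HT 4, HT 5 and WT 5. In the same libraries the summed level of 5 erythroid transcripts (5 of 5 markers measured, none at 0 in any library) was 9085, 8866, 9539 and 9333 normalised counts, while the other libraries held 3108 to 5476. *Abca1* was also lowest in these 4 libraries, and so was *Stard4*, at 1018, 1073, 1121 and 1107 against 1142 to 1209.8 elsewhere. No other member was lowest in these 4 libraries. Outside the members, *Abcg1* was, and so were the markers *Sox9* (radial glia) and *Pdgfra* (oligodendrocyte lineage). How many of all tested genes were was not counted. Of these libraries 3 are HT and 1 is WT, so that this division and genotype partly coincide. It was seen in the data and was not tested, and neither was the part of blood in these values. Summed microglial markers, 10 of 10 measured and none at 0 in any library, ranged from 1985 to 2958 in HT and from 2149 to 3572 in WT.

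**Figure D4:**
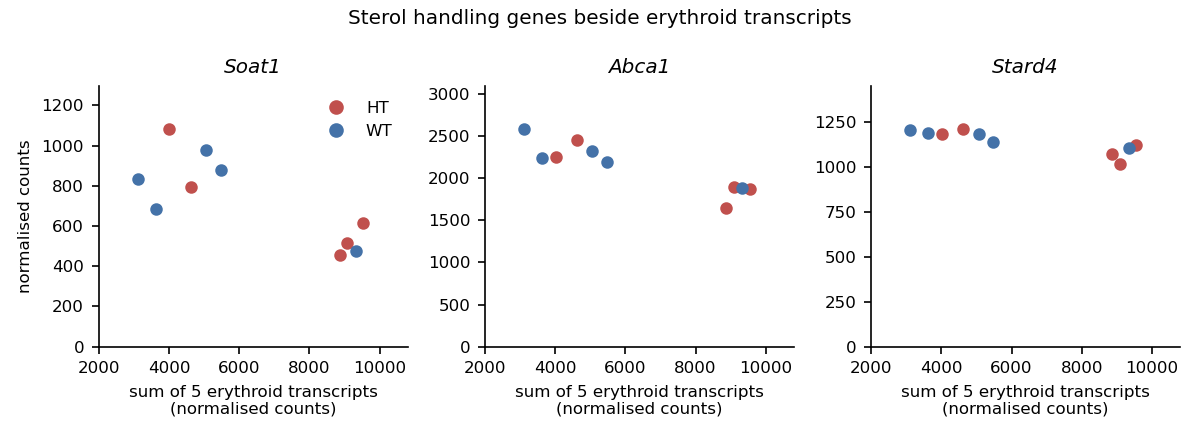
Normalised counts of *Soat1*, *Abca1* and *Stard4* in each library (red HT, blue WT) against the summed normalised counts of 5 erythroid transcripts. The 4 libraries at the right of each panel (HT 3, HT 4, HT 5 and WT 5) hold the lowest values of all 3 genes.

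To describe how members varied over the 10 libraries regardless of genotype, correlations on the log2 scale were computed for *Sqle* with the 28 other members and for *Srebf2* with the 27 members left, 55 relations in all, both genes having been picked after the values were seen. None passed an adjusted p of 0.05. *Sqle* was closest to *Fdft1* (Pearson r = 0.842, permutation p = 0.00281, adjusted p = 0.0773, Spearman rho = 0.794, permutation p = 0.00887, adjusted p = 0.246). With WT 2 and WT 3 left out, the libraries farthest from the median of *Sqle*, r was 0.776.

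The next were *Cyp51* (r = 0.809, rho = 0.636, permutation p = 0.00686 and 0.0542, adjusted p = 0.109 and 0.409) and *Idi1* (r = 0.785, rho = 0.721, permutation p = 0.00794 and 0.024, adjusted p = 0.109 and 0.356). With the same 2 libraries left out, r was 0.852 for *Cyp51* and 0.851 for *Idi1*. As a description, 4 of the 17 other enzymes had r of at least 0.7 with *Sqle*, the fourth being *Acat2*, against 1.46% of all tested genes. Without HT 4 the count was 8 of 17, against 2.86% of all tested genes. None of the 11 control and handling genes reached 0.7.

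*Srebf2* itself had no such relation to *Sqle* in these libraries (r = -0.0721, rho = 0.0545, permutation p = 0.849 and 0.892, adjusted p = 0.916 and 0.964). With *Srebf2* the relation of largest size was that of *Npc2* (r = -0.876, rho = -0.612, permutation p = 0.00236 and 0.0665, adjusted p = 0.0773 and 0.409), which was -0.618 without HT 4 and HT 5. *Lss* (r = 0.759, rho = 0.418, permutation p = 0.021 and 0.234, adjusted p = 0.165 and 0.65) and *Hsd17b7* (r = 0.759, rho = 0.539, permutation p = 0.0124 and 0.113, adjusted p = 0.129 and 0.479) were the only members with r of at least 0.7 to *Srebf2*, a value that 9.74% of all tested genes reached. Their r fell to 0.182 and 0.196 without the same 2 libraries, the farthest from the median of *Srebf2*, and so rested on those samples.

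**Figure D5:**
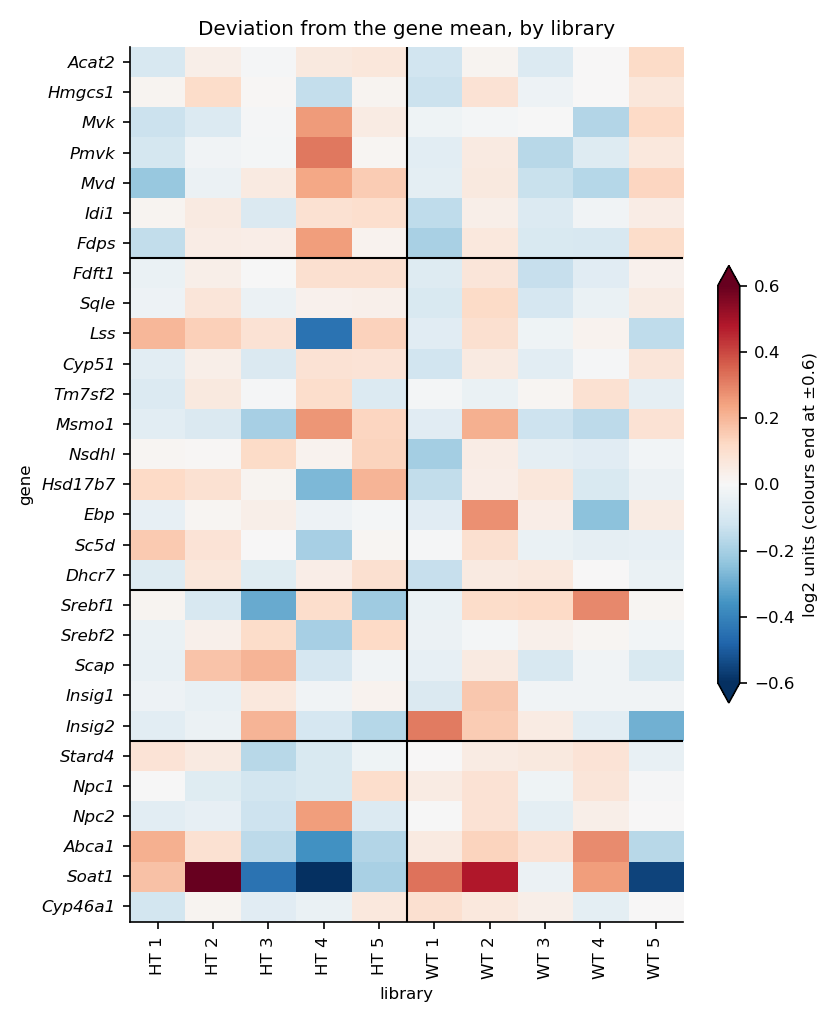
Deviation of each of the 29 genes from its own mean over the 10 libraries, in log2 units (colours end at ±0.6), with black lines between HT and WT and between the 4 roles. *Soat1* varies most, HT 4 stands out in *Lss* and *Abca1* (low) and in *Mvk*, *Pmvk* and *Fdps* (high), and *Sqle*, *Fdft1*, *Cyp51* and *Idi1* are all below their means in WT 1 and WT 3 and above them in WT 2.

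Of 26 further genes for sterol synthesis side branches, uptake, oxysterols and efflux, 25 were tested and *Ch25h* was below the filter. Of the 25, 11 estimates were above 0 and 14 below, the median was -0.012, and none passed either threshold. Without HT 4 the median was -0.0025, and *Abcg4*, named after its values were seen (log2 difference 0.14), and *Lbr* (-0.19) had an unadjusted limma p under 0.05. Without WT 5 the median was -0.032, and 2 genes had one. Of all tested genes, 8.4% had one without HT 4 and 704 genes had one without WT 5. The smallest limma p values in all 10 libraries belonged to *Lbr*, a sterol reductase of the inner nuclear membrane (547 ± 31.2 in HT and 614 ± 59.5 in WT, log2 difference -0.16, exact permutation p = 0.0794), and to *Abcg1*, a cholesterol exporter (544 ± 33.7 in HT and 594 ± 57.7 in WT, log2 difference -0.12, exact permutation p = 0.143). By the exact permutation test alone *Nceh1*, a cholesteryl ester hydrolase named after its values were seen, had the smallest p (1285 ± 39.4 in HT and 1225 ± 17.9 in WT, log2 difference 0.069, exact permutation p = 0.0317). Of 8 genes for fatty acid synthesis, the branch served by *Srebf1*, 5 estimates were above 0 with a median of 0.015 and none passed either threshold. Without HT 4, 7 of 8 were above 0 with a median of 0.044, and *Acaca* turned from -0.083 to 0.094. *Elovl6* (log2 difference 0.087) then had an unadjusted limma p under 0.05. Both are named after their values were seen. Without HT 5, 3 of 8 were above 0 with a median of -0.0026. *Acly*, which supplies acetyl-CoA, had 7675 ± 354 in HT and 7522 ± 191 in WT (log2 difference 0.028), and *Scd1*, a fatty acid desaturase, had 1561 ± 107 in HT and 1522 ± 123 in WT (0.038).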

How the data were processed

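RNA from 10 whole brains (5 HT and 5 WT) was sequenced for the authors as poly-A libraries, made with a stranded mRNA kit per the labels. Per the methods and the submitters' processing notes, reads were quantified with Salmon 1.1.0 on GRCm38 with GC bias correction, imported with tximport, and divided by DESeq2 1.30.1 size factors. The deposited values are these normalised read counts, a signal that is not whole reads, so that count models were not used. Each library summed to between 27.2 M (HT 4) and 29.03 M (HT 3) normalised counts (M, 1000000), and every member exceeded 267 in every library. The annotation release was not given in the sources used here, and symbols, positions and lengths came from GENCODE M21 (18431 of 18444 genes matched).

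Values were analysed as log2(value + 1), a scale that understates changes of low genes, in R 4.3.3 with limma 3.58.1. Genes with a mean of at least 10 entered limma-trend (two-sided, robust variance moderation, no covariates), with Benjamini-Hochberg adjustment over all 17020 genes and a threshold of 0.05. A two-sided exact permutation test over 252 assignments was run for single genes, and 100000 permutations for correlations. The workflow was tested on simulated data. The 29 members, the lists and the tests were chosen with earlier results of these data known. Values in every library were given for the 8 members with the smallest p, for the highest member per kilobase of each role and for *Arid1b*. In each of the other 2 lists, genes with an unadjusted p under 0.05 were named or, where there were none, the 2 with the smallest p. *Soat1*, *Lss* and *Hsd17b7* were added after their values were seen. Promoter windows were missing for *Fdft1*, *Fdps*, *Stard4*, *Npc1* and *Sqle*. Python 3 scripts with numpy computed the permutations, and scipy supplied the ranks for Spearman rho. Whether each library came from a different litter was not given in the sources used here.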

Additional observations from a re-analysis of the deposited data

Results flagged for a closer look

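Among 68 groups of 5 libraries checked (29 members, *Arid1b* and 4 role scores in HT and in WT), 5 had a library far from the others by Dixon's ratio, where chance gives about 1 in 20, or 3.4. In 4 of these that library was HT 4. It was lowest for *Arid1b* (1505 normalised counts against 2142 to 2372 in the other HT libraries) and for *Lss* (2014 against 2913 to 3143). It was highest for *Pmvk* (1655 against 1237 to 1342) and for *Npc2* (1756 against 1354 to 1427). In WT, *Insig1* was highest in WT 2 (2479 against 2084 to 2186).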

How the results depend on the processing

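The *Arid1b* difference, the counts of calls, the role medians and the differences of all 29 members were recomputed under 20 alternatives. The levels, overlap counts and exact permutation tests were not, and the correlations were recomputed only without HT 4 and without the 2 farthest libraries. No member reached an adjusted p of 0.05 under any of them, and the smallest was 0.446 (*Lss* and *Srebf1* without HT 4). Of the medians of the 4 roles, that of SREBP control changed sign (-0.022 to 0.013 over all alternatives). Those of the mevalonate and of the squalene and sterol steps moved by over 1.5 times, to 0.023 to 0.090 and 0.0070 to 0.059. The median of sterol transport, storage and turnover ran from -0.091 to -0.048. The number of members with an unadjusted p under 0.05 was 4 with sample weights, 0 with the length trend removed, 4 with the length trend removed and HT 4 left out, and 0 to 4 when 1 library was left out, where the members differed between settings (4 without HT 4, 2 without HT 1, and 0 without HT 2, HT 3, HT 5, WT 3 or WT 4). At the same unadjusted threshold, the count over all 17020 tested genes was 580 in the main fit. It was 1280, 787 and 1302 under the first 3 of these settings. It was 1429 without HT 4, 804 without HT 1, and 447 to 591 without HT 2, HT 3, HT 5, WT 3 or WT 4. Over all genes the count at adjusted p under 0.05 was 2, 1 and 2 under the first 3 of these settings, and 0 to 2 when 1 library was left out. The *Arid1b* log2 difference was -0.60, -0.65 and -0.64 under them, each past the threshold, and -0.73 to -0.57 when 1 library was left out, past the threshold only without HT 4. Several estimates changed sign under 1 or more of the 20 alternatives. Besides *Hmgcs1* and *Srebf2*, these were *Acat2*, *Mvk*, *Cyp51*, *Tm7sf2*, *Msmo1*, *Ebp*, *Sc5d*, *Dhcr7*, *Insig1*, *Insig2* and *Npc2*. *Msmo1* did so under 6 alternatives, and *Tm7sf2* and *Insig1* under 5 each. *Hmgcs1* was -0.00074 with quantile normalisation and -0.030 to 0.039 with 1 library left out, and *Srebf2* was -0.018 to 0.061 with 1 library left out. The correlation of deviations between same-numbered HT and WT libraries was -0.10 for number 4 and 0.082 to 0.093 for the others, so that the numbers were not taken as pairs. For 4 of 5 numbers it was above the correlations with other numbers (at most 0.058 to 0.070), a hint from the data and not from the labels. With the replicate number as a block, 0 of all genes and 0 members passed the adjusted threshold. At an unadjusted p under 0.05 there was 1 member, against 558 of all tested genes. The *Arid1b* difference was then -0.68, and the role medians were 0.070, 0.023, -0.0051 and -0.064.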
